A study of Mus musculus with 30 samples.

Results

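The chromatin around 10 genes of the nuclear lamina and of the complex that joins the nucleus to the cytoskeleton was followed in ATAC-seq data. By the rule below, 9 of the genes were given at least 1 accessible window. The 10 were the lamin genes Lmna, Lmnb1 and Lmnb2, the lamin B receptor gene Lbr, the SUN genes Sun1 and Sun2, the nesprin genes Syne1, Syne2 and Syne3, and the torsin gene Tor1a. A window is a consensus peak of transposase-accessible chromatin in which the authors counted reads, and it was given to a gene when that gene's transcription start site (TSS) was the nearest protein-coding TSS and lay within 50 kb. This gave 230 of 305931 windows in the 24 h table and 239 of 369846 in the 4 h table. At 24 h the 230 windows fell to Lmna 22, Lmnb1 34, Lmnb2 6, Lbr 16, Sun1 17, Syne1 47, Syne2 44, Syne3 42 and Tor1a 2. No window of either table was given to Sun2, so it is not analysed here. At 24 h 202 windows not given to it were tested within 500 kb. Whether the chromatin at Sun2 was closed was not tested. On GRCm38, Lmna lies at chr3:88480147-88509956, Lmnb2 at chr10:80901203-80918245, Lbr at chr1:181815335-181843046, Sun1 at chr5:139200637-139249840, Syne1 at chr10:5020917-5551482, Syne2 at chr12:75818134-76110926, Syne3 at chr12:104929933-105009809 and Tor1a at chr2:30960627-30967933, and Sun1, Syne2 and Lmnb1 are on the plus strand and the others on the minus strand.

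Chromatin accessibility was measured by ATAC-seq in 7 groups of 3 libraries, 21 of the 30 libraries of the series. At 24 h, primary mesenchymal stem cells (MSCs) from the marrow of male C57BL/6J mice had been left untreated, given CK666, which blocks the Arp2/3 complex that branches actin filaments, or given cytochalasin D (CytoD), which caps actin filament ends. At 4 h, MSCs and NIH3T3, a line of mouse embryonic fibroblasts, had been left untreated or given CK666, and there was no CytoD group at this time. Untreated stands for the samples titled control, and the titles do not say whether these were given a vehicle. The labels give NIH3T3 the strain and sex of the MSCs, although the line is known as one of Swiss mouse origin, and they give no age. The labels do not tell apart the mice that gave the MSCs, and nothing says that the 3 libraries of a group came from separate cultures, so the p-values measure the spread between libraries, which may be technical. The 9 siRNA libraries of the 24 h table were left out, because their counts do not follow the window positions of that table.

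The nuclear lamina is a meshwork of intermediate filaments under the inner nuclear membrane. Lmna encodes the A-type lamins A and C, and Lmnb1 and Lmnb2 encode the B-type lamins. The lamin B receptor, a protein of the inner nuclear membrane and a sterol reductase, tethers heterochromatin to the nuclear edge. SUN proteins span the inner membrane and bind, between the membranes, the nesprins of the outer membrane. Together they form the LINC complex. The long forms of nesprin-1 (Syne1) and nesprin-2 (Syne2) bind actin filaments, nesprin-3 (Syne3) binds plectin and through it intermediate filaments, and torsin A (Tor1a) is an ATPase of the space between the membranes that acts on this complex.

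Library totals ran from 14071301 to 22352180 counts at 24 h and from 14496058 to 34979833 at 4 h. The rank correlations between libraries of a group were 0.872 to 0.916 at 24 h and 0.880 to 0.952 at 4 h. The cell labels were checked on promoter windows. Cdkn2a, which NIH3T3 is known to have lost, had 0 to 2.16 normalized counts there and 429 to 621 in MSCs of the same table. Summed over all 14 windows nearest to Cdkn2a, the NIH3T3 libraries held 312 to 590 raw counts and the MSC libraries 1168 to 1389. The mesenchymal and stromal markers Col1a1, Col1a2, Pdgfrb, Prrx1, Twist1, Runx2, Cxcl12, Vcam1 and Alpl had a promoter window with counts in every group. These counts could be low, as with Alpl at 2.19 to 10.7 in NIH3T3 with CK666. They did not set all of these markers above those of other cells. In untreated MSCs at 24 h Col1a1 had 47.2 to 53.4 and the endothelial marker Kdr 59.2 to 67.4. Ptprc, Itgam, Spi1, Pecam1 and Cdh1, markers of blood, endothelial and epithelial cells, had no promoter window in either table, while the macrophage genes Csf1r and Lyz2 had one. At 24 h Csf1r had 36.1 to 56.3 normalized counts in control, 19.0 to 30.7 with CK666 and 20.8 to 42.1 with CytoD, and Lyz2 had 66.6 to 102, 80 to 112 and 127 to 151. At 4 h Csf1r went from 127 to 163 in control to 74.5 to 126 with CK666 in MSCs and from 159 to 168 to 115 to 161 in NIH3T3, and Lyz2 from 82.2 to 109 to 119 to 162 in MSCs and had 44.0 to 61.5 and 30.7 to 82.3 in NIH3T3. The ranges of Csf1r did not overlap between control and CK666 in MSCs at either time, and those of Lyz2 did not overlap between control and CytoD at 24 h or between control and CK666 in MSCs at 4 h. Kdr, Cdh5 and Epcam, the last at 24 h alone, also had a promoter window, so 5 of the markers of other cells had one in at least 1 table. In untreated MSCs at 24 h Cdh5 had 9.10 to 19.4 and Epcam 10.9 to 29.1. Thy1 had 0 to 2.02 normalized counts in MSCs at 4 h and 54.6 to 97.7 in NIH3T3, and Thy1 and Lepr had no promoter window at 24 h. At 4 h the marrow stromal marker Lepr had 14.2 to 15.2 in untreated MSCs and 36.3 to 50.3 in untreated NIH3T3. The part of other cells in the results was not tested. In bulk samples a smaller share of cells with an open window and a less open window in each cell cannot be told apart.

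For 4 Syne3 and Sun1 windows that the results below turn on, the central 300 bases that the 24 h and 4 h windows have in common are given first, on the plus strand of GRCm38. The capitals mark matches to short motifs searched on both strands: GGAATG for TEAD factors, TGANTCA for AP-1, TGTGGT for RUNX factors, TTGCNNAA for C/EBP, GCGTG for the core of the aryl hydrocarbon receptor site, and the CArG box of serum response factor by its name. The Syne3 window is shown because it fell in all 4 treatment comparisons, and the Sun1 windows because they moved in different directions.
Syne3 intron, chr12:105007698-105007997: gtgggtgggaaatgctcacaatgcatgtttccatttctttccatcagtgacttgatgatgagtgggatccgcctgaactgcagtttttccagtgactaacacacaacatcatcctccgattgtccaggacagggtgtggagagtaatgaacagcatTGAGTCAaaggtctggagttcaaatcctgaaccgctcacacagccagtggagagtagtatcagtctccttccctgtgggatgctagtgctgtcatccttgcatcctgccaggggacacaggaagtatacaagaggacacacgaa
Sun1 upstream of the gene, chr5:139196926-139197225: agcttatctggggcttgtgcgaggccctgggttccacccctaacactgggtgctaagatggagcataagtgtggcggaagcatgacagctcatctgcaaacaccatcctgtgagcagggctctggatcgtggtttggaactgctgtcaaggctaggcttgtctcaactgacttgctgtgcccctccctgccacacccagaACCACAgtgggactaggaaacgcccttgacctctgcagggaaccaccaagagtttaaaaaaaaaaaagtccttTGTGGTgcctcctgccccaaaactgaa
Sun1 gene body, chr5:139215263-139215562: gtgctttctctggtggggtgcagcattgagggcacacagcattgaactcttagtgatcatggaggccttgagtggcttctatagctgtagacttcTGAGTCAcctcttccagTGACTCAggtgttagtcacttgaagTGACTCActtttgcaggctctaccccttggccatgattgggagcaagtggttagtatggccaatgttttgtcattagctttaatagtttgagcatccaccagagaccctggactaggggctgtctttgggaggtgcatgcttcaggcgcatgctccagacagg
Sun1 beside an internal start, chr5:139226877-139227176: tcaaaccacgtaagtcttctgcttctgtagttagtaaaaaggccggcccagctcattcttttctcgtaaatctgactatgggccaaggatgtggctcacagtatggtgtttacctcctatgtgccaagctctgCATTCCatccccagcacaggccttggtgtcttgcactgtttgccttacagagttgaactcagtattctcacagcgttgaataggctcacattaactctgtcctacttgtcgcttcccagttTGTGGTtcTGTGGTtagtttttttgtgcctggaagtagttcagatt

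The Syne3 stretch held 1 AP-1 match, and its GC content was 49%. The upstream Sun1 stretch held 2 RUNX matches, the Sun1 gene body stretch 3 AP-1 matches and the stretch beside the internal Sun1 start 1 TEAD and 2 RUNX matches, none overlapping another. Over the central 300 bases of all 305931 windows of the 24 h table, 19.9% held the TEAD motif, 21% the AP-1 motif, 27.7% the RUNX motif, 14.2% the C/EBP motif, 15.3% the aryl hydrocarbon receptor core and 1.55% a CArG box. The median GC content there was 47%. A match describes these letters and not a bound factor.

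Before treatment, the promoters of the 9 genes differed widely in accessibility. A promoter window here is the window that contains a TSS of the gene and had the highest mean count, and its level is the count normalized by TMM (trimmed mean of M-values) per kb of window. The order of levels depends on window width, which ran from 545 bp in Sun1 to 1857 bp in Syne3 at 24 h. In untreated MSCs at 24 h the Sun1 window held a mean of 514 normalized counts, and the Lmnb1 window, 1359 bp wide, held 974. In untreated MSCs of the 24 h table Sun1 was highest, at 944 ± 45.2 normalized counts per kb (mean ± SD, n = 3). Lbr followed at 719 ± 70.0, Lmnb1 at 717 ± 38.5 and Syne1 at 653 ± 46.6, and the SDs of neighbours among these 3 overlapped. Syne2 at 318 ± 43.2, Syne3 at 299 ± 29.5 and Lmna at 288 ± 56.1 came next, again with overlapping SDs. Tor1a at 97.2 ± 7.05 and Lmnb2 at 75.1 ± 6.70 were lowest.

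In untreated MSCs of the 4 h table the order began with Lmnb1 at 2792 ± 35.2 normalized counts per kb, Sun1 at 1538 ± 144, Syne1 at 1173 ± 45.1 and Lbr at 939 ± 41.9. In untreated NIH3T3 it began with Sun1 at 2164 ± 278, Lmnb1 at 1612 ± 256, Lbr at 664 ± 58.1 and Syne1 at 418 ± 23.0. Lmnb2 and Tor1a were the lowest 2 in both, at 224 ± 4.25 and 207 ± 28.6 in MSCs and at 73.6 ± 23.6 and 133 ± 26.0 in NIH3T3. Between these ends the order was Syne2 at 419 ± 26.0, Lmna at 405 ± 68.5 and Syne3 at 397 ± 11.3 in MSCs, and Lmna at 377 ± 43.4, Syne3 at 356 ± 31.6 and Syne2 at 224 ± 9.58 in NIH3T3. The SDs of these 3 genes overlapped in MSCs, as did those of Lmna and Syne3 in NIH3T3. At 4 h the widths ran from 537 bp in Sun1 to 1714 bp in Syne3, so here too the order depends on width. The tables have their own window borders and were not scaled to each other, so a level per kb is not comparable between them. The strongest Syne1 window of this kind lies at a start inside the gene, and for Lmna the window so chosen differs between the tables.

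**Figure D1:**
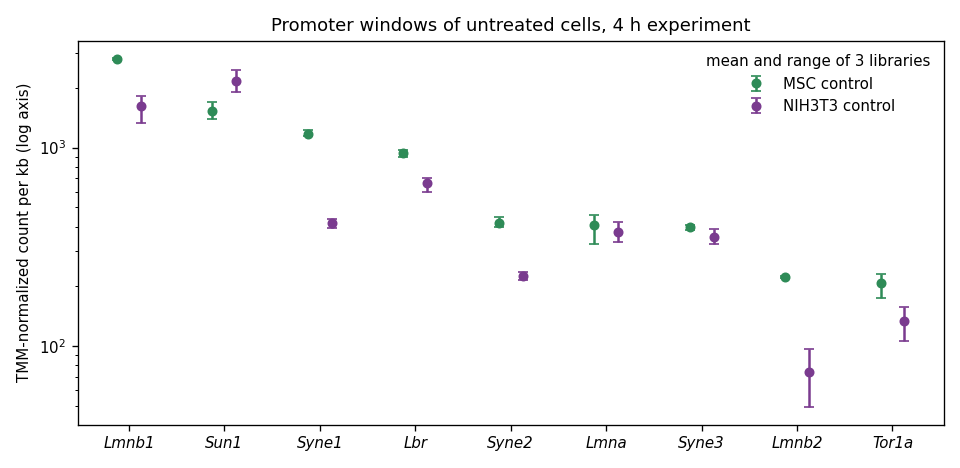
Accessibility of the promoter windows of the 9 genes in untreated cells of the 4 h table, as TMM-normalized count per kb of window on a log axis, with the mean and the range of 3 libraries. Lmnb1 and Sun1 are at the top and Lmnb2 and Tor1a at the bottom in both cell types, and Syne1, Lmnb1 and Lmnb2 lie higher in MSCs and Sun1 higher in NIH3T3.

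The first comparison asks how blocking branched actin for 24 h changes accessibility at these genes in MSCs. A Syne1 intron, a Sun1 window upstream of the gene and a Sun1 start inside the gene became more accessible, a Sun1 and a Syne3 intron less so, and none of the 9 promoter windows passed the test. A window is called at an adjusted p under 0.01 and an absolute log2 fold change over 1, and passes the test at an adjusted p under 0.05 whatever its size. The test was the quasi-likelihood test of edgeR, and p-values were adjusted over all windows by the Benjamini-Hochberg method. Of the 230 member windows 2 were called higher and 2 lower, where 1.88% and 1.06% of all 300323 windows tested were. At the wider threshold 9 rose and 12 fell, beside 4.9% and 4.6% of all windows, and the median log2 fold change of the member windows was 0.00 beside 0.02 for all windows. Fold changes below are on the log2 scale with their standard error.

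Syne1 had the largest gain, in an intron window at chr10:5196172-5196724, 1465 bp from an internal start. The normalized counts were 15.3, 3.6 and 7.6 in the control libraries, 64, 52 and 39.9 with CK666 and 13.6, 0 and 7.8 with CytoD. All 3 CK666 libraries lay above all controls, and the CytoD libraries lay among or below the controls, 1 of them at 0. The log2 fold change was 2.63 ± 0.44 with CK666 (adjusted p = 4.00e-06) and -0.21 ± 0.57 with CytoD (adjusted p = 0.866). This window is low in untreated cells, so its fold rests on few control counts.

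Sun1, whose product anchors nesprins at the inner membrane, had windows that moved both ways. Its window at chr5:139226768-139227296, 25 bp from an internal start and over a coding exon, had 91.5, 84.7 and 100.2 normalized counts in control, 185, 145.9 and 208.9 with CK666 and 106, 89.5 and 91.8 with CytoD. The CK666 libraries stood apart from both other groups, which overlapped each other. It rose by 0.96 ± 0.16 (adjusted p = 6.17e-06), just under the limit for a call, while CytoD gave 0.05 ± 0.18 (adjusted p = 0.9).

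Upstream of Sun1, at chr5:139196791-139197358 and 3279 bp from its start, the counts were 8.3, 20.9 and 22.9 in control, 50, 40.9 and 50.4 with CK666 and 14.9, 16.9 and 7.8 with CytoD. Again only the CK666 libraries left the range of the others. The gain was 1.38 ± 0.35 (adjusted p = 0.00404); it was no longer called when any library but control replicate 3 was left out, with adjusted p up to 0.0494, nor with DESeq2 (0.0124). In a Sun1 intron, at chr5:139203586-139204726, the counts went the other way, with 74.9, 85.6 and 108.8 in control, 35, 36.2 and 29.4 with CK666 and 44.8, 38.9 and 75.2 with CytoD. All CK666 libraries were below all controls, and 1 CytoD library reached into the control range. The fold changes were -1.42 ± 0.25 with CK666 (adjusted p = 8.33e-06) and -0.74 ± 0.24 with CytoD (adjusted p = 0.0314).

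Syne3, the nesprin that links to intermediate filaments, lost accessibility in an intron at chr12:105007581-105008161, 1648 bp from its start. The counts were 74.9, 68.3 and 69.7 in control, 31, 35.3 and 38.8 with CK666 and 29.9, 53.2 and 27.3 with CytoD. Both treated groups lay below all controls. The fold changes were -1.01 ± 0.26 with CK666 (adjusted p = 0.00473) and -0.96 ± 0.27 with CytoD (adjusted p = 0.0107), and the CK666 loss was no longer called when any library but CK666 replicate 3 was left out, while it still passed the wider threshold, with adjusted p up to 0.0322. Syne3 had 1 window that rose and 5 that fell with CK666, Syne1 and Syne2 each had 2 and 3, Sun1 had 2 and 1, and Lmnb1 and Lbr each had 1 that rose. No window of Lmna, Lmnb2 or Tor1a passed.

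**Figure D2:**
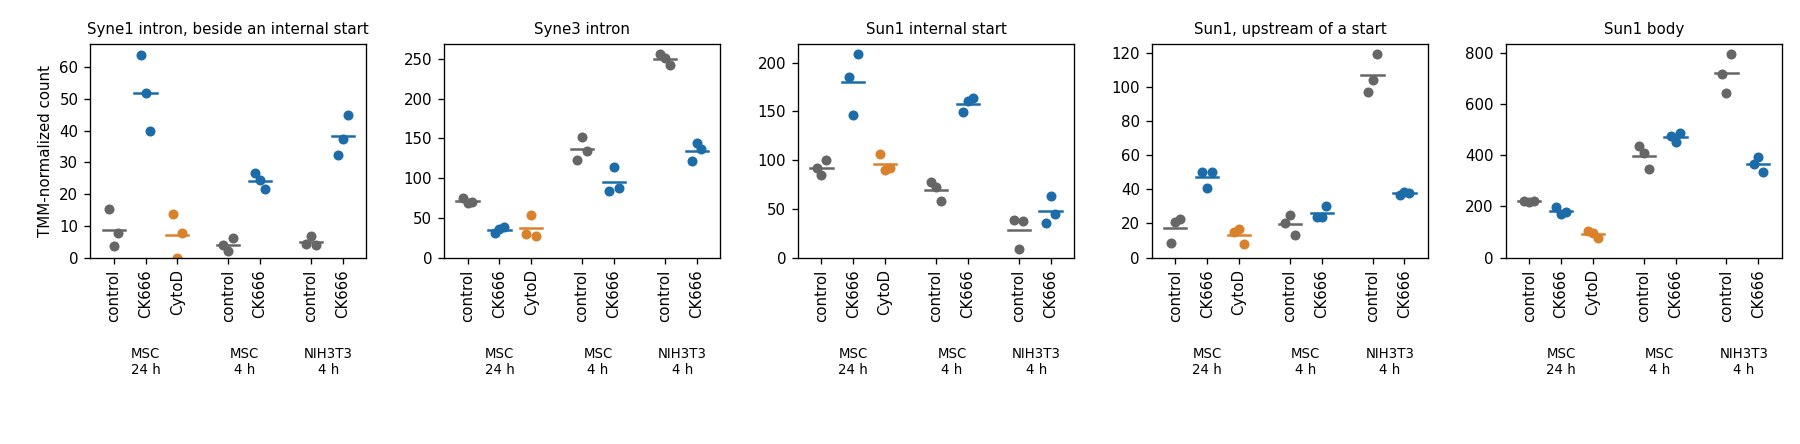
TMM-normalized counts of 5 windows in each library, grouped by cell type and time, with a line at each group mean; grey points are control, blue CK666 and orange CytoD. The Syne1 window sits higher with CK666 in all 3 pairs of groups, and the upstream Sun1 window is higher with CK666 in MSCs at 24 h and lower with CK666 in NIH3T3 at 4 h.

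Summed over all its windows, Syne1 fell from 3568, 3827 and 3800 normalized counts in the controls to 3198, 3220 and 3242 with CK666, and Syne3 from 6892, 6854 and 6807 to 6210, 5797 and 5863. In both genes the groups did not overlap. The log2 fold changes were -0.21 ± 0.04 for Syne1 (adjusted p = 2.74e-05) and -0.20 ± 0.03 for Syne3 (adjusted p = 6.73e-06); taken over windows within 5 kb of a TSS alone, Syne1 was at -0.04 (adjusted p = 0.746). These were the 2 of 9 genes whose sum passed, both lower, where 21.5% of the 19041 genes tested passed in either direction. A sum over more windows holds more counts. The shares over all genes, here and below, were not matched for the number of windows of a gene. The Lbr sum was at 0.14 ± 0.05 (adjusted p = 0.0545) and passed with total counts as the only scaling (adjusted p = 0.0243). Over windows within 5 kb of a TSS alone it was at 0.02 (adjusted p = 0.868). Promoter windows gave differences from -0.15 ± 0.09 in Syne3 to 0.26 ± 0.18 in Tor1a, and none of the 9 passed.

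The second comparison asks the same of CytoD, which shares its control libraries with CK666 at 24 h. Losses outnumbered gains among the members. They lay in Sun1, Lmnb1, Lbr, Syne1, Syne2 and Syne3, and Syne1 held both gains. Of the 230 windows 2 were called higher and 4 lower, beside 0.98% and 1.4% of all windows. At the wider threshold 2 rose and 23 fell, beside 3.68% and 6.2% of all windows, with a median log2 fold change of -0.07 beside 0.04 for all windows. With total counts as the only scaling, 3 rose and 14 fell, while 56.4% of the calls over all windows were higher, against 41.2% with TMM.

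The clearest loss was in the Sun1 gene body, at chr5:139215114-139215668 over a coding exon, where the counts were 220.5, 216.6 and 221.4 in control, 198, 171 and 179.5 with CK666 and 104.6, 96 and 75.2 with CytoD. The CytoD libraries were far below both other groups, and the CK666 libraries were somewhat below the controls. The fold change was -1.27 ± 0.15 with CytoD (adjusted p = 5.01e-10) and -0.26 ± 0.14 with CK666 (adjusted p = 0.259), and CK666 exceeded CytoD by 1.01 ± 0.15 (adjusted p = 3.67e-07). Another Sun1 window, 10438 bp upstream at chr5:139189630-139190199, had 48.5, 41.9 and 64.9 in control, 52, 78.1 and 64 with CK666 and 19, 10.4 and 24.4 with CytoD, and the fold change was -1.49 ± 0.31 with CytoD (adjusted p = 3.00e-04). Here too all CytoD libraries lay below both other groups.

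In Syne3 the window at chr12:104951299-104951837, an intron, had 127.6, 150.2 and 138.4 in control, 113, 96.6 and 102.9 with CK666 and 54.4, 79.1 and 47.8 with CytoD. The CytoD libraries were lowest and the groups did not overlap, with a fold change of -1.22 ± 0.19 (adjusted p = 1.17e-06). The actin-binding nesprin gene Syne1 held 3 called windows, all in introns within 7812 bp of an internal start. At chr10:5188768-5189337 the counts were 88.8, 84.7 and 73.5 in control, 87, 91.1 and 99.7 with CK666 and 31.3, 42.8 and 35.2 with CytoD, a fold change of -1.17 ± 0.23 with CytoD (adjusted p = 1.34e-04).

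The other 2 called Syne1 windows rose with CytoD from low counts. At chr10:5191392-5191990 the counts were 8.3, 24.6 and 30.5 in control, 47, 39 and 35.7 with CK666 and 54.4, 53.2 and 51.8 with CytoD, with fold changes of 1.26 ± 0.31 for CytoD (adjusted p = 0.00325) and 0.87 ± 0.32 for CK666 (adjusted p = 0.0673). At chr10:5202519-5203124 they were 4.2, 6.4 and 5.7, 11, 15.8 and 21 and 31.3, 27.2 and 13.7 in the same order of groups, with 2.07 ± 0.54 for CytoD (adjusted p = 0.00494), while CK666 did not pass (adjusted p = 0.0689). The CytoD libraries lay above all controls in both windows. Each call was lost on leaving out any of 5 of the 6 libraries, all but control replicate 3 for the first window and all but CytoD replicate 3 for the second, with adjusted p up to 0.0508 and 0.0502.

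Summed over windows, 5 of the 9 genes passed and all 5 were lower with CytoD, where 27.3% of all genes passed in either direction. Sun1 went from 1221, 1260 and 1327 to 1052, 1018 and 1034 normalized counts, -0.30 ± 0.06 on the log2 scale (adjusted p = 1.36e-04). Lmnb1, a B-type lamin gene, went from 4071, 3894 and 4160 to 3527, 3553 and 3464, -0.20 ± 0.04 (adjusted p = 4.92e-05). In both genes the lowest control was above the highest CytoD library. Syne2 changed by -0.17 ± 0.04 (adjusted p = 0.00231), Syne3 by -0.16 ± 0.03 (adjusted p = 2.94e-04) and Syne1 by -0.15 ± 0.04 (adjusted p = 0.00273). Over windows within 5 kb of a TSS alone Syne2 was at -0.08 (adjusted p = 0.429) and Syne1 at -0.03 (adjusted p = 0.821).

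Of the promoter windows, Sun1 and Lmnb1 passed with CytoD. The Sun1 promoter had 486.8, 521.6 and 534.5 normalized counts in control and 456.6, 412.4 and 401.3 with CytoD, -0.29 ± 0.09 (adjusted p = 0.036), and the Lmnb1 promoter had 943.1, 944.8 and 1034.6 and 829, 858.6 and 819.3, -0.22 ± 0.08 (adjusted p = 0.0473). The groups did not overlap in either. Both missed the threshold with total counts as the only scaling, at adjusted p of 0.101 and 0.148, and on leaving out a single library, any but control replicate 1 and CytoD replicate 1 for Sun1 (up to 0.146) and any but control replicate 1 for Lmnb1 (up to 0.176). The other 7 promoters had negative fold changes that did not pass. The median of the 9 promoter windows was -0.21, beside -0.07 over all 16686 windows that contain a protein-coding TSS, of which 8.64% fell and 2.15% rose.

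**Figure D3:**
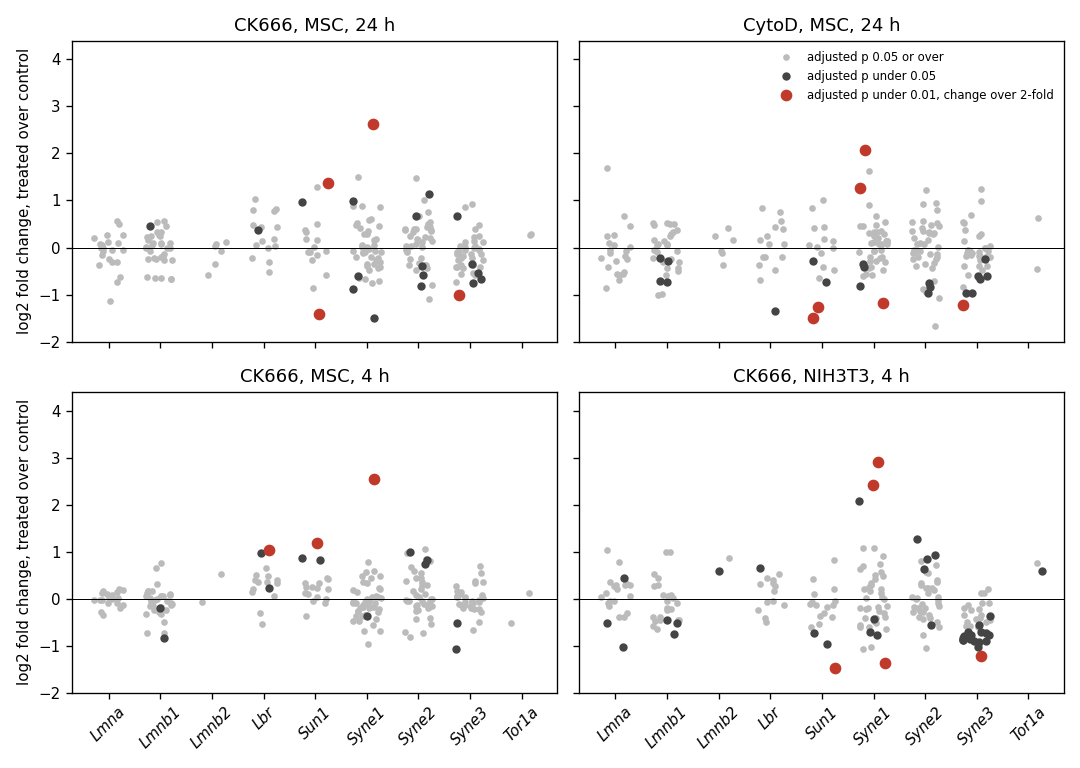
Log2 fold change of every tested member window, treated over control, by gene, in 4 panels for CK666 and CytoD in MSCs at 24 h and CK666 in MSCs and in NIH3T3 at 4 h. Grey points have an adjusted p of 0.05 or over, dark points an adjusted p under 0.05 and red points are called; the Syne1 window is the topmost red point of the 3 CK666 panels, and the Syne3 points of NIH3T3 lie mostly below 0.

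Set directly against each other in the same fit, CK666 left the member windows more accessible than CytoD more often than less. Here 6 windows were called higher with CK666 and 1 lower, beside 2.14% and 1.14% of all windows, and 23 were higher and 3 lower at the wider threshold, beside 7.34% and 4.24%. The median was 0.06 beside -0.03 for all windows. With total counts as the only scaling, 4 were called higher and 2 lower, and 17 and 9 passed, while 53.8% of the calls over all windows were higher, against 65.3% with TMM. The largest differences were in the Syne1 intron described above, 2.85 ± 0.46 (adjusted p = 1.53e-06), the upstream Sun1 window, 1.86 ± 0.38 (adjusted p = 1.54e-04), and the Sun1 window 10438 bp upstream, 1.81 ± 0.30 (adjusted p = 3.68e-06).

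The window that was higher with CytoD was a Syne1 intron at chr10:5179101-5179643, with 8, 9.3 and 10.5 normalized counts under CK666, 24.5, 33.7 and 24.4 under CytoD and 27.7, 20 and 31.5 in control. The CK666 libraries were below both other groups. The difference was -1.55 ± 0.43 (adjusted p = 0.00731), and the call did not survive leaving out any of the 6 libraries, with adjusted p up to 0.0534, nor DESeq2 (0.0124) or a fit of these 6 libraries alone (0.0113). Among gene sums 5 of 9 were higher with CK666 and none lower, where 31.2% of all genes passed in either direction. They were Sun1 at 0.39 ± 0.06 (adjusted p = 1.33e-06), Lbr at 0.22 ± 0.05 (adjusted p = 0.00213), Lmnb1 at 0.18 ± 0.04 (adjusted p = 1.43e-04), Tor1a at 0.47 ± 0.18 (adjusted p = 0.0408) and Syne2 at 0.11 ± 0.04 (adjusted p = 0.0381). Tor1a and Syne2 missed the threshold on leaving out any of 5 libraries, all but CK666 replicate 2 for Tor1a and all but CytoD replicate 3 for Syne2, at up to 0.129 and 0.144.

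The promoters of Tor1a, Sun1, Lmnb1 and Lbr were each more accessible with CK666 than with CytoD. Tor1a, the gene of the LINC-associated ATPase, had 121, 92.9 and 121.7 normalized counts with CK666 and 63.9, 70 and 69.3 with CytoD, 0.72 ± 0.19 (adjusted p = 0.00595), and its controls at 91.5, 100.1 and 86.9 lay between them in mean. Sun1 differed by 0.47 ± 0.09 (adjusted p = 8.67e-05), Lmnb1 by 0.32 ± 0.08 (adjusted p = 0.00151) and Lbr by 0.26 ± 0.08 (adjusted p = 0.0179). Lbr missed the threshold with total counts (0.0635) and without replicate 1 or 3 of either treatment (up to 0.185). Over all windows that contain a TSS the median of this difference was 0.09, with 2396 higher and 399 lower of 16686.

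At 4 h, the question was what CK666 does early in MSCs. The same Syne1 intron and the same internal Sun1 start rose, a distant Lbr window rose, and nothing was called lower. Of 239 member windows 220 were tested, and 3 were called higher and 0 lower, beside 0.59% and 0.427% of the 306819 windows tested. At the wider threshold 10 rose and 5 fell, beside 3.56% and 3.81%, and the median was -0.01 beside 0.00. At an unadjusted p under 0.05 there were 41 member windows in either direction, 18.6% of those tested beside 19.1% of all windows.

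The Syne1 window, chr10:5196187-5197050 in this table, had 4.1, 2 and 6.1 normalized counts in untreated MSCs and 26.7, 24.5 and 21.6 with CK666. The groups were far apart, at 2.55 ± 0.50 (adjusted p = 1.44e-04). All 5 other settings that gave this window an adjusted p called it. DESeq2 was not among them and did not call it. At the internal Sun1 start, chr5:139226729-139227284, the counts were 77.1, 72 and 57.6 and 149.9, 160.3 and 163.4, a gain of 1.19 ± 0.16 (adjusted p = 3.49e-08), again with no overlap. The Lbr window at chr1:181876936-181877591, 33890 bp from the Lbr start in intergenic sequence, had 27.4, 17 and 25.3 and 38.2, 53.1 and 52.1, 1.04 ± 0.28 (adjusted p = 0.00909). This last call was lost with DESeq2 (0.0281), without a filter on low counts (0.0133), with all 12 libraries of the table in 1 fit (0.0744) and on leaving out any library but CK666 replicate 1 (up to 0.0891).

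The Syne3 intron window fell in MSCs from 122.7, 152 and 134.4 to 83.1, 113.9 and 87.1, -0.53 ± 0.16 (adjusted p = 0.0241). The sums of 3 of 9 genes passed, where 18.4% of all 19356 did in either direction. Lbr rose from 2126, 2078 and 2071 to 2473, 2470 and 2336, 0.21 ± 0.05 (adjusted p = 3.41e-04), and Sun1 from 2114, 2029 and 1821 to 2293, 2220 and 2331, 0.20 ± 0.05 (adjusted p = 0.00172). The Lmnb1 sum was lower, at -0.11 ± 0.04 (adjusted p = 0.0317), and missed the threshold with total counts as the only scaling (0.0745) and without CK666 replicate 2, CK666 replicate 3 or control replicate 1 (up to 0.154). For Lbr and Sun1 the groups did not overlap.

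Among promoters at 4 h in MSCs, Lbr rose and Lmnb1 fell. Lbr went from 1181.5, 1155.1 and 1083.2 to 1386.3, 1395.3 and 1224 normalized counts, 0.22 ± 0.06 (adjusted p = 0.00859), and Lmnb1 from 1555.8, 1517.2 and 1533.9 to 1408.2, 1337.1 and 1304.8, -0.19 ± 0.06 (adjusted p = 0.0183). The groups did not overlap in either gene. Neither passed when the spread was estimated over all 12 libraries, at adjusted p of 0.242 and 0.388. Lbr was also lost without CK666 replicate 2 or control replicate 3 (up to 0.110) and Lmnb1 without CK666 replicate 2, CK666 replicate 3 or control replicate 1 (up to 0.120).

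In NIH3T3 after 4 h of CK666 the members lost accessibility more often than they gained it, and Syne3 carried most of the losses. Of 208 member windows tested 2 were called higher and 3 lower, beside 1.87% and 1.67% of the 331963 windows tested. At the wider threshold 11 rose and 32 fell, beside 5.89% and 7.26%, and the median was -0.14 beside 0.04. With total counts as the only scaling, 4 were called higher and 2 lower, and 17 and 26 passed, while 69.5% of the calls over all windows were higher, against 52.8% with TMM and 39.7% with DESeq2. Syne3 gave 19 of the 32 falling windows.

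The Syne1 intron window rose here as in MSCs, from 4.3, 6.9 and 3.8 to 32.2, 37.3 and 45 normalized counts, 2.90 ± 0.45 (adjusted p = 1.62e-06). A further Syne1 intron window, chr10:5159683-5160198, rose from 2.2, 7.8 and 1.9 to 15.3, 26.3 and 24, 2.42 ± 0.59 (adjusted p = 0.00248). A Syne1 window over a coding exon, chr10:5234632-5235206, fell from 59.3, 65.9 and 45.9 to 15.3, 27.4 and 21, -1.37 ± 0.30 (adjusted p = 5.67e-04). The groups did not overlap in any of the 3; the second call was lost without CK666 replicate 2 or 3 or control replicate 1 or 3 (up to 0.0287) and the last without control replicate 2 (0.0119).

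At Sun1 the upstream window, chr5:139196748-139197361 in this table, fell in NIH3T3 from 97.1, 104.1 and 119.5 to 36.8, 38.4 and 38, -1.48 ± 0.22 (adjusted p = 6.52e-07), and had 20.3, 25 and 13.1 and 23.9, 23.6 and 30.5 in MSCs, 0.41 ± 0.34 (adjusted p = 0.567). The gene body window, chr5:139215156-139215724, fell in NIH3T3 from 719.4, 646.2 and 798.4 to 366.5, 393.9 and 334, -0.96 ± 0.13 (adjusted p = 4.34e-08), and had 438.1, 410 and 347.6 and 474.5, 453 and 485.8 in MSCs, 0.24 ± 0.09 (adjusted p = 0.0813). In both windows the treated NIH3T3 libraries were clear of their controls. At the internal Sun1 start NIH3T3 had 38.8, 8.7 and 37.3 and 35.3, 63.6 and 45, 0.82 ± 0.32 (adjusted p = 0.0794), with groups that overlapped.

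The 19 Syne3 windows that fell in NIH3T3, of 39 in the table, stretched over 69.1 kb from the gene body to upstream of its start, with fold changes from -1.23 to -0.37. The intron window described above went from 256.7, 250.7 and 241.9 to 121.1, 143.7 and 137, -0.87 ± 0.15 (adjusted p = 1.65e-05). The called window lay 4578 bp upstream, at chr12:105014387-105015405, with 38.8, 46 and 52.6 and 26.1, 6.6 and 26, -1.23 ± 0.34 (adjusted p = 0.00925). It was not called with DESeq2 (0.0429), in the fit of all 12 libraries (0.0241), with total counts (0.0283), or without CK666 replicate 2 or any 1 control (up to 0.0943).

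**Figure D4:**
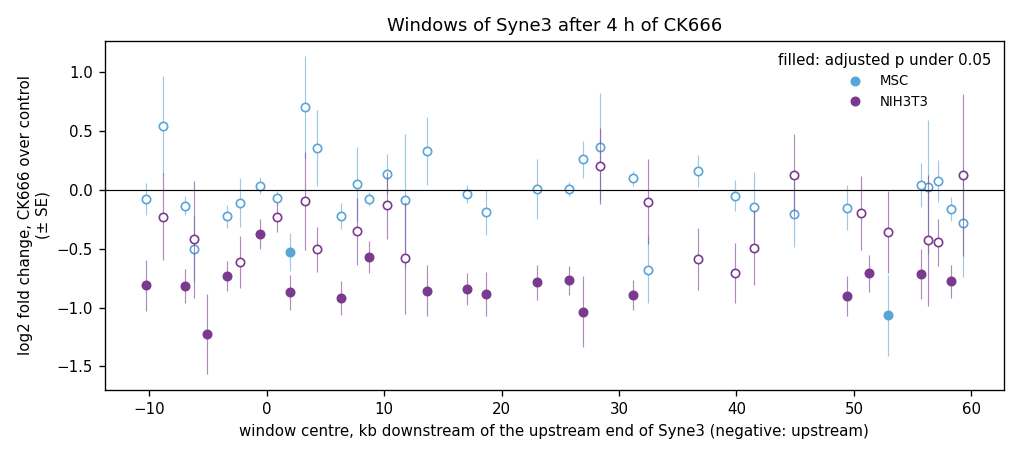
Log2 fold change with its standard error of each Syne3 window after 4 h of CK666, in MSCs and in NIH3T3, against the distance of the window's centre in kb downstream of the upstream end of the gene; filled points have an adjusted p under 0.05. In NIH3T3 19 filled points lie between -1.23 and -0.37 along the gene and upstream of it, while the MSC points scatter around 0 with 2 filled.

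Windows of other genes near Syne3 also moved. Within 500 kb of Syne3, 300 windows not given to it were tested in NIH3T3, 4 rose and 32 fell, and their median was -0.33 beside -0.59 for the Syne3 windows. Over all windows tested 5.89% rose and 7.26% fell. The part of this neighbourhood in the Syne3 result was not tested.

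Summed over windows, Syne3 fell in NIH3T3 from 9342, 9002 and 9481 to 5472, 6280 and 6006 normalized counts, -0.63 ± 0.05 (adjusted p = 6.91e-11). Sun1 fell from 3768, 3481 and 3664 to 2770, 2953 and 2685, -0.36 ± 0.06 (adjusted p = 5.28e-06), Lmnb1 from 3374, 3170 and 3201 to 2633, 2636 and 2741, -0.26 ± 0.05 (adjusted p = 2.39e-04), and Syne1 from 4718, 4884 and 4557 to 3704, 4273 and 4073, -0.21 ± 0.06 (adjusted p = 0.00264). All treated libraries were below all controls in these 4 genes. The sums of the B-type lamin gene Lmnb2 and of Tor1a rose, both from few counts: Lmnb2 from 99, 115 and 74 to 176, 144 and 158, 0.74 ± 0.19 (adjusted p = 0.0022), and Tor1a from 74, 107 and 116 to 176, 155 and 129, 0.63 ± 0.20 (adjusted p = 0.0093). Tor1a missed the threshold without control replicate 1, at 0.47 (adjusted p = 0.0849). In all 6 of 9 genes passed, 2 higher and 4 lower, where 42.1% of the 19466 genes tested passed in either direction. With total counts as the only scaling, these 6 still passed. Lmna (0.18, adjusted p = 0.0032) and Syne2 (0.18, adjusted p = 0.00524) then passed too, both higher. Syne2 also passed over windows within 5 kb of a TSS alone (0.22, adjusted p = 0.0109).

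The surroundings of Lmnb2 and Tor1a moved the same way. Within 500 kb of Lmnb2 the median of 268 other windows was 0.45, with 64 that rose and 0 that fell. Near Tor1a it was 0.33, with 28 that rose and 2 that fell of 162. Of all windows tested, 5.89% rose and 7.26% fell. The part of these neighbourhoods in the gains was not tested.

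The promoters of Lmnb2 and Tor1a rose in NIH3T3, from 73.3, 93.7 and 47.8 to 111.9, 110.8 and 100 (0.60 ± 0.20, adjusted p = 0.0379) and from 57.2, 74.6 and 85.1 to 113.5, 118.5 and 92 (0.59 ± 0.20, adjusted p = 0.035). Those of Lmnb1 and Syne3 fell, from 1006.4, 731.2 and 921.8 to 670.1, 650.7 and 602.9 (-0.44 ± 0.13, adjusted p = 0.0105) and from 666.6, 558.6 and 605.3 to 484.6, 482.8 and 426 (-0.37 ± 0.13, adjusted p = 0.0381). All 4 sat near the threshold. Lmnb2 lost its pass without any library but control replicate 2 (adjusted p up to 0.381) and Tor1a without any but CK666 replicate 3 (up to 0.267), and DESeq2 gave 0.174 and 0.147 for them. Lmnb1 and Syne3 lost theirs without CK666 replicate 3, control replicate 1 or control replicate 3 (up to 0.151 and 0.234), and Syne3 also with total counts (0.0564). With total counts the promoters of Lmna (0.39, adjusted p = 0.00177) and Syne2 (0.41, adjusted p = 0.00374) passed as well, both higher.

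**Figure D5:**
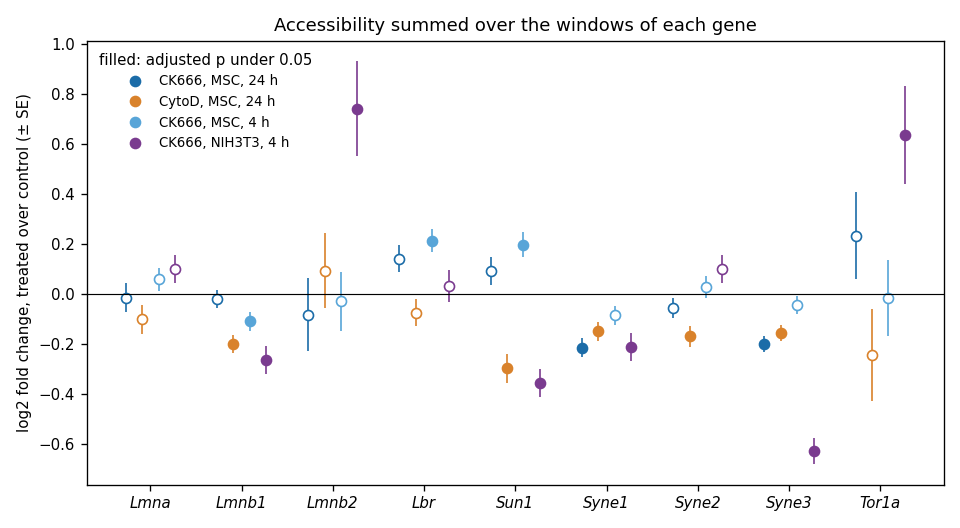
Log2 fold change with its standard error of the counts summed over all windows of each gene, for CK666 and CytoD in MSCs at 24 h and CK666 in MSCs and NIH3T3 at 4 h; filled points have an adjusted p under 0.05. Syne3 in NIH3T3 is lowest at -0.63, Lmnb2 and Tor1a in NIH3T3 are highest with wide errors, and Sun1 is at -0.30 with CytoD and at 0.20 with CK666 at 4 h in MSCs.

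Whether CK666 acted differently in the 2 cell types was tested as the difference of its effects, MSC minus NIH3T3, over all 12 libraries of the 4 h table. Of 238 member windows tested 6 were called higher in this difference and 0 lower, beside 0.905% and 0.498% of all 368794, and 15 were higher and 1 lower at the wider threshold, beside 2.91% and 1.76%. The median was 0.19 beside -0.05. With total counts as the only scaling, 4 were called higher and 1 lower, and 14 and 5 passed, while 46.2% of the calls over all windows were higher, against 64.5% with TMM. The called windows were in Sun1 and Syne3.

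At Sun1 the effects differed by 1.91 ± 0.39 in the upstream window (adjusted p = 6.93e-04) and by 1.22 ± 0.16 in the gene body window (adjusted p = 6.74e-08). The third was the window 391 bp from the Sun1 start, chr5:139198669-139200246, with 278.3, 222.1 and 270.6 and 141.1, 186.5 and 126 in NIH3T3 and 91.3, 126 and 94 and 139.4, 126.5 and 158.9 in MSCs, a difference of 1.21 ± 0.23 (adjusted p = 1.67e-04). It fell in NIH3T3 (-0.74 ± 0.15, adjusted p = 3.55e-04), and MSCs had 0.44 ± 0.15 (adjusted p = 0.0652). At Syne3 the effects differed by 1.02 ± 0.15 at chr12:104978298-104978871 (adjusted p = 1.09e-06), by 1.31 ± 0.33 at chr12:104982555-104983214 (adjusted p = 0.00881) and by 3.11 ± 0.71 in the window 4578 bp upstream (adjusted p = 0.00295), where MSCs had only 6.1, 0 and 3 and 10.5, 14.3 and 9. The second of these was not called on leaving out any of 10 of the 12 libraries (adjusted p up to 0.0408), the exceptions being CK666 replicate 2 and control replicate 3 of NIH3T3.

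For gene sums 5 of 9 passed, 4 higher and 1 lower, where 28.2% of 19635 genes passed. Syne3 differed by 0.60 ± 0.06 (adjusted p = 1.05e-09), Sun1 by 0.57 ± 0.08 (adjusted p = 1.19e-07) and Lmnb2 by -0.75 ± 0.21 (adjusted p = 0.00595). Lbr at 0.20 ± 0.08 (adjusted p = 0.0425) and Lmnb1 at 0.17 ± 0.07 (adjusted p = 0.0418) were at the threshold: with total counts they were at 0.184 and 0.203, and leaving out any of 11 libraries for Lbr, all but NIH3T3 control replicate 2, and any of 9 for Lmnb1, all but MSC control replicate 3, NIH3T3 CK666 replicate 3 and NIH3T3 control replicate 2, took them past it. Of the 305 other windows within 500 kb of Syne3 22 were higher in this difference and 0 lower, beside 2.91% and 1.76% of all windows, and their median was 0.37.

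Experiments with separate controls were also laid over each other by position. Of the member windows that passed with CK666 in MSCs, 4 overlapped between 24 h and 4 h, which is 19.0% of the 21 at 24 h and 26.7% of the 15 at 4 h. Over all windows the pairs that passed both times in the same direction came to 30.9% and 39.0%, and 94.6% of the pairs passing both times had the same direction. All 4 went the same way at both times: the Syne1 intron, the internal Sun1 start and a Syne2 intron at chr12:75833367-75835217 (0.67 and 0.83) rose, and the Syne3 intron fell. Between MSCs and NIH3T3 at 4 h 4 passed in both, 26.7% of 15 and 9.30% of 43, all in the same direction: the Syne1 intron rose, and the Lmnb1 promoter, the Syne3 intron and a Syne1 intron at chr10:5212584-5213867 fell. Over all windows these shares were 19.3% and 9.98%, and 80.5% of the windows passing in both had the same direction.

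Between MSCs at 24 h and NIH3T3 at 4 h 8 passed in both, and 5 of them went the same way, 23.8% of 21 and 11.6% of 43 for that number, beside 18.4% of 28535 and 5246 of 43660 over all windows, where 75.9% of the pairs had the same direction. They were the Syne1 intron and 4 Syne3 windows. The 3 that went opposite ways were the upstream Sun1 window, 1.38 and -1.48, a Syne2 window over a UTR, -0.40 and 0.63, and a Syne3 intron, 0.67 and -1.03. The times differ as well as the cells in this last pair of experiments, so time and cell type cannot be told apart there.

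Untreated MSCs and NIH3T3 differed at far more member windows than any treatment changed. These controls are the ones used for both 4 h treatments. Of 226 member windows tested 48 were called higher in MSCs and 36 lower, beside 18.6% and 19% of the 339793 windows tested. At the wider threshold 77 were higher and 60 lower, beside 28.8% and 28.5%, with a median of 0.27 beside -0.04. With total counts as the only scaling, 40 were called higher and 48 lower, and 68 and 75 passed, while 40.1% of the calls over all windows were higher, against 49.5% with TMM.

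Lmnb1 had 20 of its 34 windows higher in MSCs and 0 lower, with a median of 0.86. Its surroundings also leaned toward MSCs: of 176 windows of other genes within 500 kb, 119 were higher and 12 lower, with a median of 1.24. The Lmnb1 window 22588 bp from the start had 341.8, 317 and 335.5 normalized counts in MSCs and 25.9, 18.2 and 22 in NIH3T3, 3.87 ± 0.17 (adjusted p = 3.63e-27). The window 45575 bp from the start, over a UTR, had 132.9, 136 and 138.4 and 4.3, 6.1 and 9.6, 4.26 ± 0.27, and that 3430 bp from the start had 62.9, 71 and 101 and 4.3, 8.7 and 4.8, 3.61 ± 0.34. The largest named difference toward MSCs was in Syne1, over a coding exon at chr10:5043482-5044018, with 140, 136 and 125.3 in MSCs and 2.2, 8.7 and 1.9 in NIH3T3, 4.82 ± 0.31 (adjusted p = 5.88e-20). The NIH3T3 libraries were low in all of these windows.

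The largest differences the other way were in Syne3, Sun1 and Syne2. The Syne3 intron at chr12:104958219-104958734 had 6.1, 4 and 4 in MSCs and 241.6, 218.6 and 243.8 in NIH3T3, -5.65 ± 0.25 (adjusted p = 2.76e-27). The window 9168 bp upstream of Sun1, chr5:139190889-139191469, had 1, 4 and 9.1 and 105.7, 85.9 and 110, -4.43 ± 0.34, and the Syne2 intron at chr12:76085028-76085540 had 14.2, 4 and 8.1 and 188.8, 143.1 and 194.1, -4.35 ± 0.26. The window 4578 bp upstream of Syne3 differed by -3.92 ± 0.47. In all of them MSCs had few counts and the cell types did not overlap. Sun1 had 3 windows higher in MSCs and 13 lower, Lmna 1 and 6, Syne3 10 and 15, Syne2 17 and 14, Syne1 17 and 11, and Lbr 6 and 1.

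All 9 gene sums differed between the untreated cells, 6 higher and 3 lower in MSCs, where 73.7% of 19469 genes passed. Lmnb2 differed by 1.21 ± 0.15 (adjusted p = 5.98e-10), Lmnb1 by 0.95 ± 0.05, Lbr by 0.58 ± 0.06, Tor1a by 0.52 ± 0.17 (adjusted p = 0.00657), Syne1 by 0.39 ± 0.04 and Syne2 by 0.33 ± 0.05. Sun1 at -0.85 ± 0.05, Lmna at -0.51 ± 0.05 and Syne3 at -0.14 ± 0.04 were lower in MSCs. Tor1a missed the threshold without NIH3T3 control replicate 1 (adjusted p = 0.0794), and Syne2 over windows within 5 kb of a TSS alone, at 0.11 (adjusted p = 0.108). Within 500 kb, the medians of windows of other genes were 1.24 around Lmnb1, 0.80 around Syne2, 0.66 around Syne1, 0.43 around Lmnb2, 0.29 around Tor1a, 0.21 around Lbr, -0.13 around Lmna, -0.65 around Sun1 and -0.73 around Syne3. The part of these neighbourhoods in the differences was not tested.

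Of the promoters, Lmnb2 and Syne1 were called higher in MSCs. The Lmnb2 promoter had 220.1, 213 and 220.3 normalized counts in MSCs and 73.3, 93.7 and 47.8 in NIH3T3, 1.54 ± 0.16 (adjusted p = 4.77e-12), and that of Syne1 981.8, 975.1 and 1044.8 and 334.4, 372.1 and 362.4, 1.44 ± 0.09 (adjusted p = 6.73e-20). Syne2 differed by 0.85 ± 0.10, Lmnb1 by 0.75 ± 0.09, Tor1a by 0.58 ± 0.18 and Lbr by 0.45 ± 0.09, all higher in MSCs, and Sun1 by -0.54 ± 0.09, lower in MSCs. Lmna at 0.06 ± 0.10 (adjusted p = 0.633) and Syne3 at 0.11 ± 0.09 (adjusted p = 0.3) did not pass. Tor1a missed the threshold with total counts (adjusted p = 0.0669) and without NIH3T3 control replicate 1 (0.0522). Over all 16222 windows that contain a TSS the median was 0.28, with 7895 higher in MSCs and 2733 lower.

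Other genes of the nuclear envelope were counted beside the members, from a list of 25 that holds LEM-domain and other inner membrane proteins, lamin processing enzymes, heterochromatin proteins, torsin cofactors and LINC partners. With CK666 at 24 h 9 of their 271 windows rose and 13 fell, 3.32% and 4.8% beside 4.9% and 4.6% of all windows. With CytoD 8 rose and 17 fell, 2.95% and 6.27% beside 3.68% and 6.2%. With CK666 at 4 h in MSCs 17 rose and 12 fell of 243, 6.996% and 4.94% beside 3.56% and 3.81%. In NIH3T3 14 rose and 18 fell of 245, 5.71% and 7.35% beside 5.89% and 7.26%. The medians of the partner windows were 0.01, -0.01, 0.06 and 0.07 in the same order. Between CK666 and CytoD 27 were higher with CK666 and 8 lower, 9.96% and 2.95% beside 7.34% and 4.24% of all windows. In the difference of the CK666 effects 5 were higher and 4 lower of 265, 1.89% and 1.51% beside 2.91% and 1.76%. Fntb, Nup153 and Tor1aip2 windows were higher with CK666 than with CytoD by 2.26 ± 0.47, 1.82 ± 0.46 and 1.73 ± 0.32, and the CK666 effects differed by -1.24 ± 0.27 in a window nearest to the Tor1b start, which lies in an intron of Ptges, and by 1.01 ± 0.24 in an Ankle2 window. Tor1aip2, which encodes an activator of torsin A in the endoplasmic reticulum, had a window over a UTR at chr1:156065907-156066852 that rose with CK666 at 24 h from 22.6 ± 16.5 to 82.8 ± 16.7 normalized counts (mean ± SD, n = 3), 1.94 ± 0.32 on the log2 scale (adjusted p = 3.55e-06). At 4 h in MSCs it rose from 16.1 ± 9.52 to 40.5 ± 6.06, 1.32 ± 0.33 (adjusted p = 0.00403). The groups did not overlap at either time.

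With CytoD, a Cbx3 intron fell by 1.60 ± 0.39, a window near Tmpo fell by 1.31 ± 0.20 and a Tor1aip2 intron rose by 1.58 ± 0.23 on the log2 scale. Cbx3 encodes a heterochromatin protein 1 and Tmpo the LAP2 proteins, which bind lamins. At 4 h in MSCs the window at the same Tor1aip2 intron rose by 1.54 ± 0.37 and a window near Cbx3 fell by 1.60 ± 0.37. In NIH3T3 windows near Plec and Lemd2 and in Lemd3 rose by 1.62 ± 0.36, 1.29 ± 0.34 and 1.10 ± 0.24; Plec encodes plectin, which nesprin-3 binds. Between the untreated cells 71 of 251 partner windows were higher in MSCs and 64 lower, 28.3% and 25.5% beside 28.8% and 28.5% of all windows. Among them, a window nearest to the Fnta start, over a UTR of Hook3, was at -5.87 ± 0.33, a Tmem201 window at -4.97 ± 0.31 and a Tor1aip2 window at 3.87 ± 0.24.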

How the data were processed

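ATAC-seq (Omni-ATAC, 50000 cells per library) was read from 2 tables of raw read counts per window that the authors deposited without normalization. Per the methods of the study, paired-end reads were processed with PEPATAC, bowtie2 and MACS2, and the windows are the union of peaks across replicates; the sources used here give neither versions nor filters, so their effect on the counts was not analysed. The processing notes name mm10 (GRCm38) for the 24 h samples; the build was checked by position: 60.8% and 59.7% of protein-coding TSSs (GENCODE M21) lie in a window of the 24 h and 4 h table, against 15.7% and 15.0% after a shift of 20000 bp. The 9 siRNA columns had rank correlations with the other columns of -0.003 to 0.002 and were left out.

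Windows were tested with edgeR 4.0.16 (R 4.3.3, limma 3.58.1; filterByExpr, TMM, quasi-likelihood test) and Benjamini-Hochberg adjustment over all windows of a fit: the 9 libraries at 24 h together, the 6 libraries of each comparison at 4 h, and 12 for the difference of effects. TMM takes most windows as unchanged. Gene sums add the counts of all windows of a gene and were tested over all genes. Printed counts are TMM-normalized to the median library of their table; at 4 h they use all 12 libraries while the tests use 6, so ratios of printed means can differ slightly from the fold changes. Scripts were tested on simulated counts. Tables used Python 3.11.15 and pandas 2.3.3.

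The members and lists were chosen with earlier results of these data known. Named were each gene's promoter window, every called member window of a treatment comparison (the 3 largest gains and losses where over 6 were called), the 4 largest in each direction whose mean reached 20 normalized counts in the other comparisons, and at most 3 called partner windows a comparison; other windows were named after their values were seen. DESeq2 1.42.0, other scalings, no filter, other sets of libraries, a replicate block, windows within 5 kb and leaving out each library were the alternatives. Samples with the same replicate number did not deviate together (correlations -0.072 to 0.028), so the numbers were not taken as pairs. The sequence of 1 window and 1 cell type marker are not reported here.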

Additional observations from a re-analysis of the deposited data

Results flagged for a closer look

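The effect of 4 h of CK666 differed between MSCs and NIH3T3 by a test of the difference itself (edgeR's quasi-likelihood test on the interaction of treatment and cell type over 12 libraries) for 5 gene sums and 6 windows. As MSC minus NIH3T3 on the log2 scale, the sums differed by 0.60 for Syne3, 0.57 for Sun1, 0.20 for Lbr, 0.17 for Lmnb1 and -0.75 for Lmnb2. Lbr lost its pass in 11 of the 12 fits with 1 library left out and with total counts (0.13, adjusted p = 0.184), and Lmnb1 in 9 of 12 and with total counts (0.10, adjusted p = 0.203). In the cells taken singly, the Syne3 and Sun1 sums had fallen in NIH3T3, the Lmnb1 sum had fallen in both, Lmnb2 had risen in NIH3T3, and Lbr and Sun1 had risen in MSCs. The NIH3T3 directions follow the sample labels, and by the DESeq2 count over all windows they are the reverse of the paper's.

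The Sun1 windows differed by 1.91 (3276 bp upstream of the start), 1.21 (391 bp from the start) and 1.22 (gene body). The Syne3 windows differed by 1.02 (19806 bp from the start), 1.31 (15463 bp) and 3.11 (4578 bp upstream). The last rests on few MSC counts. Sun1 and Syne3 also differed between the untreated cells, so the effects start from unequal levels, and what part this has in the differences was not tested.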

How the results depend on the processing

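No value that passed the test changed its direction. Of 1848 values under the alternatives 42 had the opposite sign, in 21 promoters and gene sums at most 0.11 in size, none of which passed (lowest adjusted p = 0.300, and 0.207 under the alternative). Among single windows, promoters and gene sums, 710 values under other settings kept their side of the threshold, 35 lost it and 11 gained it; with 1 library left out these numbers were 953, 120 and 19. Counts that moved by over 1.5 times, or from a count of 1, were as follows. With windows within 5 kb of a TSS alone, called member windows were 2 in place of 6 with CytoD, 3 in place of 7 between CK666 and CytoD, 3 in place of 5 with CK666 in NIH3T3 and 34 in place of 84 between the untreated cells, and passing gene sums were 1 in place of 2 with CK666 at 24 h and 3 in place of 5 with CytoD. This setting holds fewer windows. DESeq2 called 1 member window in place of 3 with CK666 in MSCs at 4 h, and of the partner windows 0 in place of 1 with CK666 at 24 h, 3 in place of 6 between CK666 and CytoD and 1 in place of 4 with CK666 in MSCs at 4 h. With the 6 libraries of CK666 and control at 24 h alone, 3 partner windows were called in place of 1, and with total counts 1 in place of 2 for the difference of the CK666 effects. The cause was not tested for DESeq2, the 6 libraries and total counts.

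Leaving out 1 library at a time gave 2 to 4 called member windows with CK666 at 24 h (2 without CK666 replicate 1 or control replicate 2), 4 to 7 with CytoD, 5 to 8 between the treatments, 2 to 3 with CK666 in MSCs at 4 h, 3 to 10 in NIH3T3 (10 without CK666 replicate 2, 3 without control replicate 1), 75 to 82 between the untreated cells and 3 to 6 for the difference of effects (3 without MSC control replicate 2). In the same order, passing gene sums were 2 to 3, 5 to 7, 3 to 4, 2 to 3, 5 to 7, 8 to 9 and 3 to 5, and called partner windows 1 to 2, 3 to 7, 3 to 5, 2 to 5, 2 to 6, 63 to 66 and 0 to 4.

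With the replicate number as a block, called member windows were 4, 6, 7, 3, 7, 81 and 6 and passing gene sums 3, 5, 5, 2, 6, 9 and 5, all within 1.5 times of the fits without it; adjusted p rose past the threshold for the Lmnb1 promoter with CytoD (0.0638) and in NIH3T3 (0.0839), the Syne3 promoter in NIH3T3 (0.148) and the Lmnb1 sum in MSCs at 4 h (0.0540), and went below it for the Lbr sum with CK666 at 24 h (0.0440). Numbers did not pair the libraries. Total counts in place of TMM moved the median of all windows to 0.12 with CytoD, -0.10 between CK666 and CytoD, 0.15 in NIH3T3, -0.23 between the untreated cells and -0.15 for the difference of effects. Without a filter on low counts the NIH3T3 promoters of Lmnb2 and Tor1a were at adjusted p of 0.0603 and 0.0570. Windows with few counts, such as the Syne1 intron in its controls, have folds of low precision at these depths.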
